A study of Mus musculus with 8 samples.

Results

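Kruppel-like factors were followed in cultured mouse hippocampal neurons after exposure to melanin-concentrating hormone (MCH), a peptide of lateral hypothalamic neurons whose axons reach the hippocampus. The 10 genes are *Klf2*, *Klf4*, *Klf5*, *Klf6*, *Klf7*, *Klf9*, *Klf10*, *Klf13*, *Klf15* and *Klf16*, taken by name from the 45706 genes of the deposited table, and all 10 were among the 14962 genes with enough counts to test. Hippocampal neurons of C57/Bl6 wild-type mice, prepared on embryonic day 18, received control vehicle (H2O) in 4 wells or 1 µM MCH peptide in 4 wells for 4 h, and polyadenylated RNA of each well was sequenced. According to the methods, 2 independent cultures supplied 2 wells of each treatment, but the culture behind each replicate number is not given in the sources used here, so the *P* values measure the spread between these wells. The cultures had received an inhibitor of dividing cells against glial overgrowth, which both treatments share, and the labels carry an Alzheimer's disease tag beside the wild-type genotype.

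Kruppel-like factors are transcription factors that bind GC-rich and CACCC-type DNA through zinc fingers at the C terminus. One branch of the family, which holds *Klf2*, *Klf4*, *Klf5*, *Klf6* and *Klf7*, recruits acetyltransferases such as p300, and another, which holds *Klf9*, *Klf10*, *Klf13* and *Klf16*, recruits the Sin3 corepressor. In neurons *Klf6* and *Klf7* are known to favor axon growth and *Klf4* and *Klf9* to restrain it, and several members respond rapidly to electrical activity, glucocorticoid or thyroid hormone.

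The promoters of *Klf7* and *Klf9* are shown because these are the 2 members called, at an adjusted *P* value under 0.05, by DESeq2 and by edgeR with either of 2 blocks on the wells. Each is the stretch of 250 bases before the RefSeq start on GRCm38.p6, written 5′ to 3′ on the strand of the gene. Capitals mark the GC box (GGGCGG), the CACCC box (CACCC), the core of the cAMP response element (TGACG, here called the CRE core) and the AP-1 site (TGANTCA), searched on both strands, so that a CACCC box on the opposite strand reads GGGTG. The *Klf7* stretch lies on the minus strand at chr1:64121390-64121639, inside the span that GENCODE gives the gene (chromosome 1, 64029447 to 64122282). The *Klf9* stretch lies on the plus strand at chr19:23140976-23141225, directly before the annotated gene (chromosome 19, 23141226 to 23168134).
Klf7: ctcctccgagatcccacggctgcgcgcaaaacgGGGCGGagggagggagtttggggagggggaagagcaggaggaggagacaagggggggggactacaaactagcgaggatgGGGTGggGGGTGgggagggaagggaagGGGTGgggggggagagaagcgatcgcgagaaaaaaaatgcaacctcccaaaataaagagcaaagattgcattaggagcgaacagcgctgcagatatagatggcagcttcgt
Klf9: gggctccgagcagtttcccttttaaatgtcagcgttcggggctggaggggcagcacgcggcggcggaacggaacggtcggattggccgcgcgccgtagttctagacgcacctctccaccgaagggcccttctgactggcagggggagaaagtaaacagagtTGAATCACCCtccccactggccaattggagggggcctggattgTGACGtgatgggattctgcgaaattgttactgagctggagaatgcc

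The *Klf7* promoter held 1 GC box, whose first base was at −217 from the start, and 3 CACCC boxes on the opposite strand at −138, −131 and −111. It held no CRE core and no AP-1 site. The *Klf9* promoter held a CRE core at −46 and an AP-1 site at −89 that overlaps a CACCC box at −84, and no GC box. The 2 promoters were close in GC content, at 59.2% and 59.6%, against a median of 52.4% over 32851 mouse promoters. RefSeq promoters were matched for 7 of the 10 members (*Klf2*, *Klf4*, *Klf6*, *Klf7*, *Klf9*, *Klf13* and *Klf15*). Among the 7, *Klf7* and *Klf9* had the lowest GC content, and the others ran from 64.8% (*Klf6*) to 74.0% (*Klf4*). The counts that follow use a window of 300 bases, 50 of them after the start. The shares given over all promoters were not matched to the GC content of the 7.

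A GC box was present in 6 of the 7 promoters and in 35.7% of all promoters, and a CACCC box in 5 of 7 and in 57.5%. The CRE core, part of the sequence bound by the activity-regulated factor CREB, was present in 5 of 7 (*Klf2*, *Klf4*, *Klf9*, *Klf13* and *Klf15*) and in 20.8% of all, whereas the full palindrome (TGACGTCA) was present in 0 of 7 and in 1.79%. *Klf2*, *Klf4* and *Klf15* held the site of the Egr factors (GCGNGGGCG), found in 5.55% of all promoters, and in each of them it overlaps a GC box. The AP-1 site of *Klf9* was the single match among the 7, against 7.81% of all. It reads TGAATCA, with A at the position where the pattern allows any base. A MEF2 box was found in *Klf2* and not in *Klf4*, against 0.557% of all promoters. The serum response element, found in 1.63% of all promoters, and the glucocorticoid receptor site, found in 0.475%, had 0 matches in the 7.

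**Figure D1:**
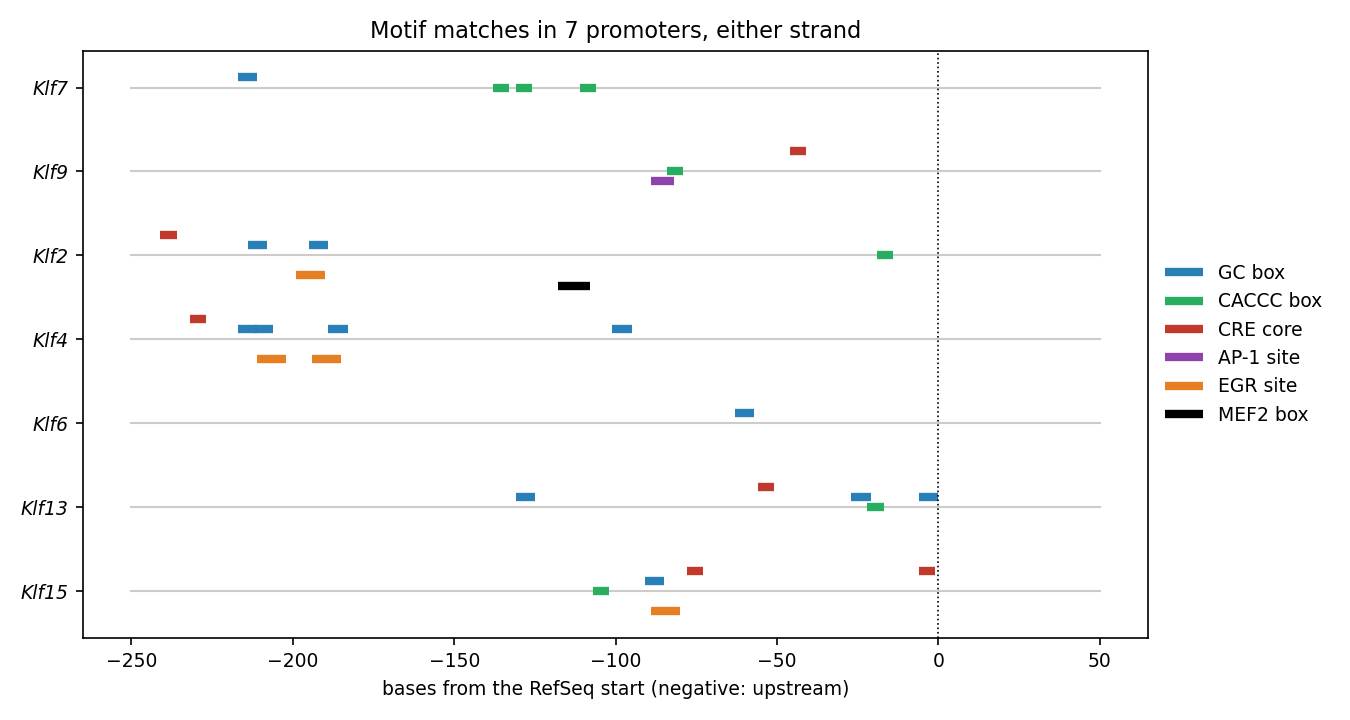
Position of each motif match in the 7 promoters, in bases from the RefSeq start (horizontal axis, 0 is the start); each colored block is 1 match on either strand and the grey line is the 300-base window. *Klf7* has 3 CACCC boxes between −138 and −111, and *Klf9* has its CRE core at −46.

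Library totals ran from 26083936 to 31844861 estimated counts per well. The wells also differed in a way the treatments do not explain: after the treatment means were removed, 59.81% of the variance lay along a first principal component on which, in both treatments, replicates 1 and 2 stood apart from replicates 3 and 4. The summed level of 8 astrocyte markers was 1028 to 1133 CPM (counts per 1000000 after TMM scaling of the library sizes) in replicates 1 and 2 and 2125 to 2420 in replicates 3 and 4, and that of 8 neuronal markers was 7918 to 8274 and 7294 to 7432. Within the 4 pairs of wells of the same number, the astrocyte and the neuronal sum were each higher in MCH in 3 and lower in 1. Of these markers *Slc1a2* alone was called (higher) with the replicate block (edgeR adjusted *P* value 0.0353), as were 1.73% of all genes. It was not called with replicates 1 and 2 blocked against 3 and 4 (0.115) or without a block (0.77). The sum of 7 markers of inhibitory neurons was lower in MCH in 4 of 4 pairs (2158 to 2858 CPM in vehicle, 2116 to 2661 in MCH). Of their log2 fold changes 7 of 7 were below 0 (median −0.12), among them *Pvalb* at a mean of only 0.51 CPM in vehicle. Without a block 0 of the 7 were called. *Gad1* and *Vip* were called lower with the replicate block, as were 2.25% of all genes. The part of these cell types in the levels of the members was not tested. *Sox10* and *Mog*, which define the oligodendrocyte lineage, were at 0 in all 8 wells. In such bulk samples fewer cells of a type and less RNA per cell cannot be told apart.

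No member passed the test of MCH against vehicle. After Benjamini–Hochberg adjustment over all genes tested, edgeR's quasi-likelihood test, fitted without a block, left 0 of 10 members with an adjusted *P* value under 0.05, against 35 of all genes (0.234%). An unadjusted *P* value under 0.05 was reached by 3 members (*Klf5*, *Klf7* and *Klf9*) and by 8.5% of all genes. DESeq2 called 2 members, *Klf7* and *Klf9*, both higher in MCH, and, as higher, 0.51% of the 12540 genes to which it gave an adjusted *P* value. With the replicate number as a block edgeR called the same 2, and 1.73% of all genes as higher, and with replicates 1 and 2 blocked against 3 and 4 it called these 2 again, and 1.85% of all genes as higher. limma voom called 0. The 2 blocks use a pairing and a split that were read from these same counts.

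Between treatments the wells of 4 members did not overlap. *Klf7* and *Klf9* were higher in every MCH-treated well, as were 3.07% of all genes, and *Klf4* and *Klf5* were lower in every MCH-treated well, as were 2.96% of all genes. The other 6 members overlapped, and none of their log2 fold changes exceeded 0.26 in size. The median log2 fold change of the 10 members was −0.02, against −0.0027 over all genes tested, with 4 members above 0 and 6 below.

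**Figure D2:**
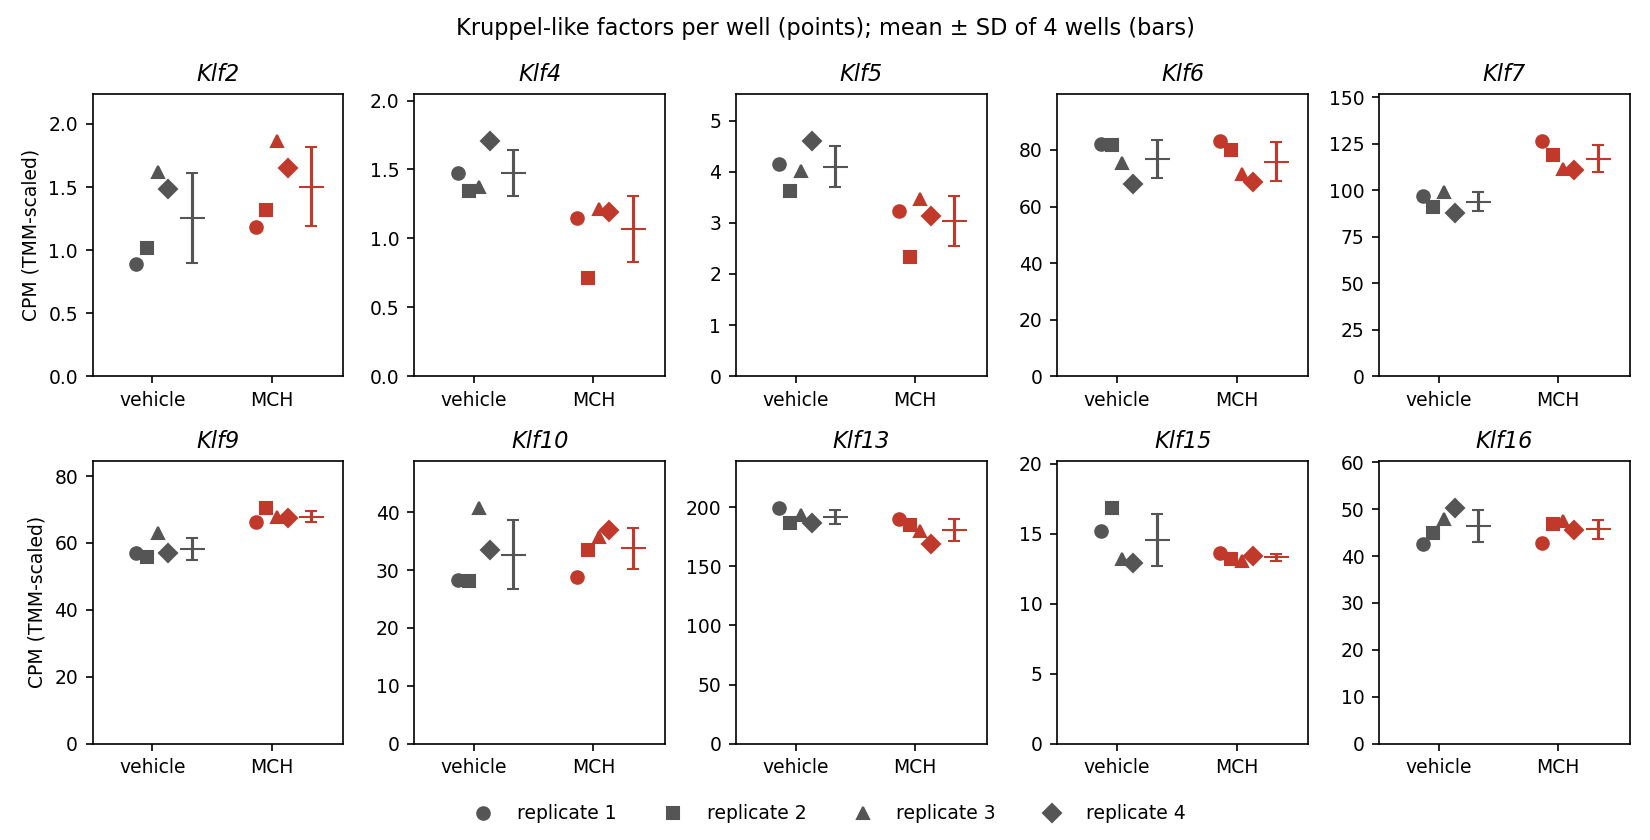
CPM of each member in each well (vertical axes, each from 0), vehicle in grey and MCH in red, with 1 marker shape per replicate number and the mean ± SD of 4 wells beside the points. *Klf7* and *Klf9* lie higher, and *Klf4* and *Klf5* lower, in all 4 MCH-treated wells, and the other 6 genes overlap.

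*Klf7*, which supports axon outgrowth and the survival of sensory neurons, had the lowest *P* value of the 10. Its level was 96.9, 91.2, 99.1 and 87.8 CPM in vehicle-treated replicates 1 to 4 and 126.7, 118.8, 111.6 and 111.0 CPM in MCH-treated replicates 1 to 4. The lowest MCH-treated well thus lay above the highest vehicle-treated well, and the MCH wells with the highest levels were replicates 1 and 2. The mean was 93.8 ± 5.17 CPM in vehicle and 117.0 ± 7.38 CPM in MCH (SD, *n* = 4 each), a 1.25-fold difference (log2 fold change 0.32, SE 0.06, 95% interval 0.19 to 0.45). It ranked 45th among all genes by *P* value and had an adjusted *P* value of 0.0761 in edgeR without a block, 6.74e-05 with the replicate block, 0.00022 with the block of replicates 1 and 2 against 3 and 4, and 0.000334 in DESeq2. MCH was higher within each pair of wells of the same number, by 0.39, 0.38, 0.17 and 0.34 on the log2 scale.

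*Klf6*, the closest relative of *Klf7* and likewise a gene that favors axon growth, was at nearly the same level in both treatments. It was 82.0, 81.7, 75.5 and 67.9 CPM in vehicle and 83.3, 80.2, 71.6 and 68.6 CPM in MCH, replicates 1 to 4. The spread followed the replicate number in both treatments: replicates 1 and 2 held 80.2 to 83.3 CPM and replicates 3 and 4 67.9 to 75.5 CPM, without overlap. The log2 fold change was −0.02 (SE 0.08, 95% interval −0.19 to 0.16, adjusted *P* value 1.00).

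*Klf9*, a target of glucocorticoid and thyroid hormone receptors that restrains neurite growth, was the other member called with a block. It was 57.1, 55.9, 63.0 and 56.9 CPM in vehicle and 66.2, 70.4, 67.6 and 67.4 CPM in MCH. The MCH-treated wells lay close together, above all 4 vehicle-treated wells, and the vehicle-treated replicate 3 came nearest to them. The mean was 58.2 ± 3.22 CPM and 67.9 ± 1.78 CPM (SD, *n* = 4 each), a 1.17-fold difference (log2 fold change 0.22, SE 0.05, 95% interval 0.12 to 0.33). The adjusted *P* value was 0.136 in edgeR without a block, 0.00426 with the replicate block, 0.00283 with the block of replicates 1 and 2 against 3 and 4, and 0.00921 in DESeq2. Without vehicle-treated replicate 3, edgeR without a block gave 0.0473. The pairs of the same number differed by 0.21, 0.33, 0.10 and 0.24 on the log2 scale, all higher in MCH.

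The other Sin3-binding members overlapped between treatments. *Klf10*, induced early by transforming growth factor-β (TGF-β), was 28.3, 28.2, 40.7 and 33.5 CPM in vehicle and 28.8, 33.5, 35.7 and 36.9 CPM in MCH. Its highest value was in a vehicle-treated well, and replicates 3 and 4 lay above replicates 1 and 2 by a narrow margin (33.51 CPM at the lowest against 33.48 CPM at the highest). The log2 fold change was 0.05 (SE 0.13, 95% interval −0.25 to 0.34).

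*Klf13*, a close relative of *Klf9*, was 199.3, 187.0, 193.1 and 186.5 CPM in vehicle and 190.4, 185.4, 179.8 and 168.6 CPM in MCH. It was lower in MCH in all 4 pairs, by at most 0.15 on the log2 scale, and the treatments overlapped (log2 fold change −0.08, SE 0.04, 95% interval −0.18 to 0.02, adjusted *P* value 0.697 without and 0.167 with the replicate block), and the log2 fold change was −0.03 with transcript length as an offset and −0.04 without MCH-treated replicate 4. *Klf16* was 42.6, 44.9, 48.0 and 50.2 CPM in vehicle and 42.8, 46.9, 47.5 and 45.5 CPM in MCH. The MCH wells of *Klf16* fell within the range of the vehicle wells, with a log2 fold change of −0.02 (SE 0.06, 95% interval −0.16 to 0.11).

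*Klf4*, a pluripotency factor that restrains axon growth, and *Klf5*, an activator of proliferation in epithelial and smooth muscle cells, were lower in all 4 MCH-treated wells, and neither passed in any fit that gave it an adjusted *P* value. *Klf5* was 4.14, 3.62, 4.02 and 4.61 CPM in vehicle and 3.23, 2.33, 3.46 and 3.12 CPM in MCH. The nearest wells of the 2 treatments were vehicle-treated replicate 2 and MCH-treated replicate 3. The mean was 4.10 ± 0.40 CPM and 3.04 ± 0.49 CPM (SD, *n* = 4 each; log2 fold change −0.43, SE 0.15, 95% interval −0.78 to −0.09), with adjusted *P* values of 0.459 in edgeR without a block, 0.0744 with the replicate block and 0.383 in DESeq2.

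*Klf4* rested on few reads, with 38, 37, 39 and 46 counts in vehicle and 36, 19, 35 and 34 counts in MCH. That corresponds to 1.47, 1.34, 1.38 and 1.71 CPM and to 1.15, 0.71, 1.21 and 1.19 CPM. MCH-treated replicate 2 stood apart from the other 3 wells of its treatment. The log2 fold change was −0.46 (SE 0.22, 95% interval −0.97 to 0.04, adjusted *P* value 0.628), and it was −0.31 without that well. At these counts a difference of the size measured could not be told from 0.

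*Klf2*, which keeps endothelial cells and T cells quiescent, was 0.89, 1.02, 1.62 and 1.49 CPM in vehicle and 1.18, 1.31, 1.87 and 1.65 CPM in MCH, from 23 to 54 counts per well. It was higher in MCH in all 4 pairs, yet the treatments overlapped, and replicates 3 and 4 (1.49 to 1.87 CPM) lay above replicates 1 and 2 (0.89 to 1.31 CPM) in both. The log2 fold change was 0.26 (SE 0.26, 95% interval −0.32 to 0.84, adjusted *P* value 0.887), and it moved to 0.13 without vehicle-treated replicate 1 and to 0.41 without vehicle-treated replicate 3. The summed level of 8 endothelial markers was 3.37 to 4.51 CPM in replicates 1 and 2 and 5.46 to 6.67 CPM in replicates 3 and 4 (*Kdr* alone 2.05 to 4.74 CPM over the 8 wells, *Cdh5*, *Cldn5* and *Tek* at most 0.26 CPM), and that of 8 microglial markers was 5.51 to 7.25 CPM and 9.24 to 11.6 CPM. The endothelial sum was higher in MCH in 4 of 4 pairs, but its markers did not share a direction. Of the 4 endothelial markers tested, 2 had log2 fold changes above 0 and 2 below (median −0.01). The part of these cells in the levels of *Klf2* was not tested.

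*Klf15*, a glucocorticoid-induced regulator of amino acid and glucose metabolism that stands outside both branches, was 15.2, 16.8, 13.2 and 12.9 CPM in vehicle and 13.6, 13.2, 13.0 and 13.4 CPM in MCH. Vehicle-treated replicates 1 and 2 were the highest of the 8 wells, and vehicle-treated replicates 3 and 4 lay within or just below the MCH-treated wells. Within replicates 1 and 2 the difference was −0.25 on the log2 scale and within replicates 3 and 4 it was 0.01. Over all wells the log2 fold change was −0.13 (SE 0.09, 95% interval −0.33 to 0.07, adjusted *P* value 0.772), and it was −0.05 without vehicle-treated replicate 2.

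**Figure D3:**
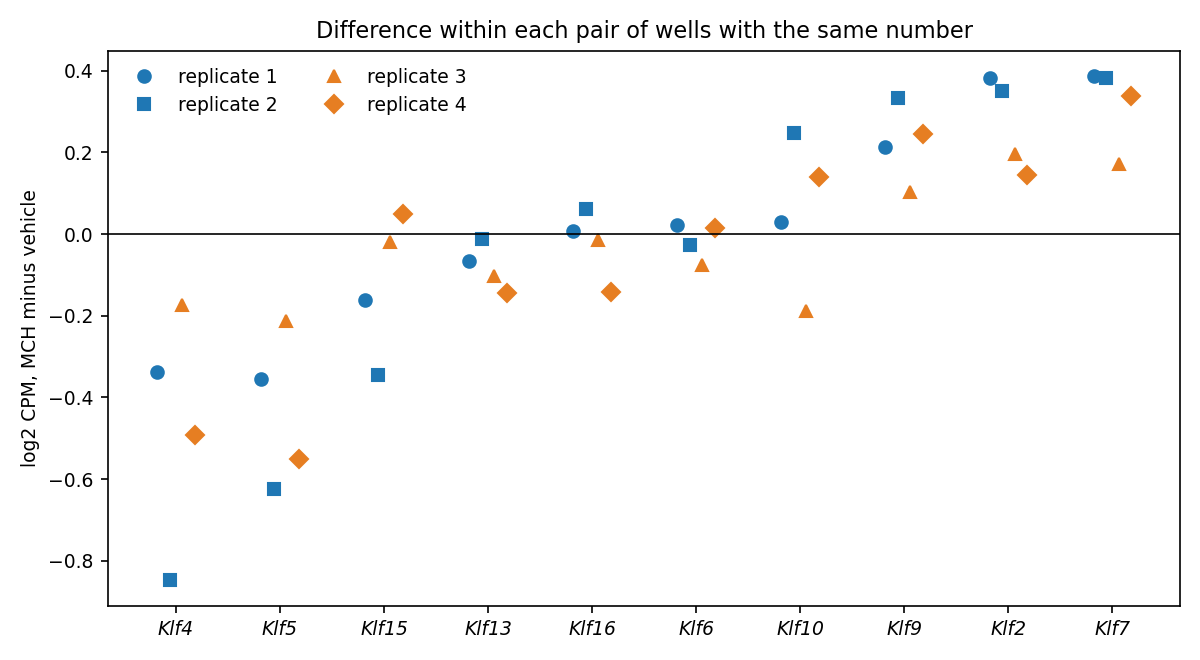
Difference in log2 CPM, MCH minus vehicle, within each pair of wells with the same replicate number (vertical axis), replicates 1 and 2 in blue and 3 and 4 in orange. All 4 pairs lie above 0 for *Klf7*, *Klf2* and *Klf9* and below 0 for *Klf4*, *Klf5* and *Klf13*, while *Klf6*, *Klf10*, *Klf15* and *Klf16* have pairs on both sides of 0.

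The levels of the members were compared with each other as TPM (transcripts per 1000000), which accounts for transcript length. *Klf13* was the highest at 53.2 ± 1.79 TPM in vehicle (SD, *n* = 4), 59.5 times *Klf4*, the lowest at 0.89 ± 0.10 TPM. *Klf6* (32.6 TPM), *Klf9* (32.6 TPM) and *Klf16* (32.3 TPM) followed as a group, then *Klf7* (22.4 TPM), *Klf10* (19.7 TPM), *Klf15* (11.5 TPM), *Klf5* (4.70 TPM) and *Klf2* (1.33 TPM). Over the 8 wells the ranges of neighbors in this order overlapped for *Klf6* and *Klf9*, *Klf9* and *Klf16*, *Klf16* and *Klf7*, *Klf7* and *Klf10*, and *Klf2* and *Klf4*. They did not overlap for *Klf13* and *Klf6*, *Klf10* and *Klf15*, *Klf15* and *Klf5*, or *Klf5* and *Klf2*. In MCH the order was the same, except that *Klf9* (38.6 ± 0.94 TPM) stood above *Klf6* (32.8 ± 2.93 TPM).

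**Figure D4:**
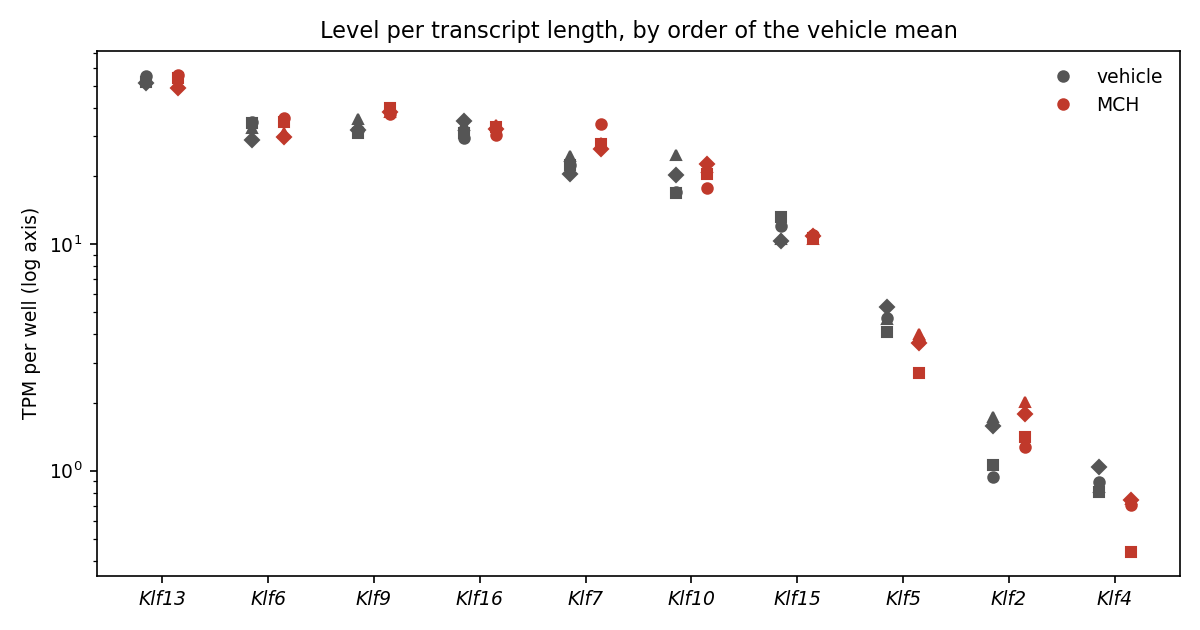
TPM of each member in each well on a log axis, in the order of the vehicle mean, with vehicle in grey and MCH in red and marker shapes as in the plot of CPM by well. The members run from *Klf13* at 53.2 TPM on average in vehicle to *Klf4* at 0.89 TPM, and the 6 most abundant are at 16.8 TPM or more in every well.

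Each member was carried by 1 leading transcript with over 95% of its reads, among 18 annotated transcripts in all. For *Klf7* the transcript *Klf7-202* of 7662 bases held 99.6% of the reads. Its short transcript *Klf7-203*, of 553 bases, held 24.3 reads in MCH-treated replicate 1, the well in which the TPM of the gene was highest at 34.0. *Klf15-202* held 25.8 reads in vehicle-treated replicate 1 and 90.4 reads in MCH-treated replicate 3 and 0 in the other 6 wells, and the split between the 2 *Klf15* transcripts, which differ by 1 base in length (2373 and 2374), is therefore uncertain. At the level of transcripts edgeR's quasi-likelihood test without a block called 0 of 33527 (1476 with an unadjusted *P* value under 0.05). Its adjusted *P* values were 0.348 for *Klf7-202* and 0.550 for *Klf9-201*. With the replicate block they were 0.784 and 0.840, in a fit that called 0 of the 33527 transcripts. *Klf9-201* held 100% of the reads of *Klf9*, with the same counts as the gene. The transcript fit is therefore no separate test of the 2 genes, and nothing about their calls is drawn from it.

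Of the 7 Kruppel-like factors outside the 10, 5 passed the filter on low counts and 0 were called by edgeR without a block (1, *Klf11*, had an unadjusted *P* value under 0.05). *Klf11*, a Sin3-binding relative of *Klf10*, was 5.77, 5.58, 6.56 and 4.64 CPM in vehicle and 6.87, 8.78, 7.92 and 6.85 CPM in MCH. It was higher in every MCH-treated well (log2 fold change 0.43, SE 0.13, adjusted *P* value 0.355 without a block, 0.0209 with the replicate block and 0.192 in DESeq2). *Klf14* had a log2 fold change of −0.31 (SE 0.19), and *Klf3*, *Klf8* and *Klf12* had values between 0.01 and 0.06, of which *Klf8* moved to 0.45 and *Klf3* to −0.16 with transcript length as an offset. *Klf1*, the erythroid factor, and *Klf17* were below the filter, the latter with at most 1 read per well.

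**Figure D5:**
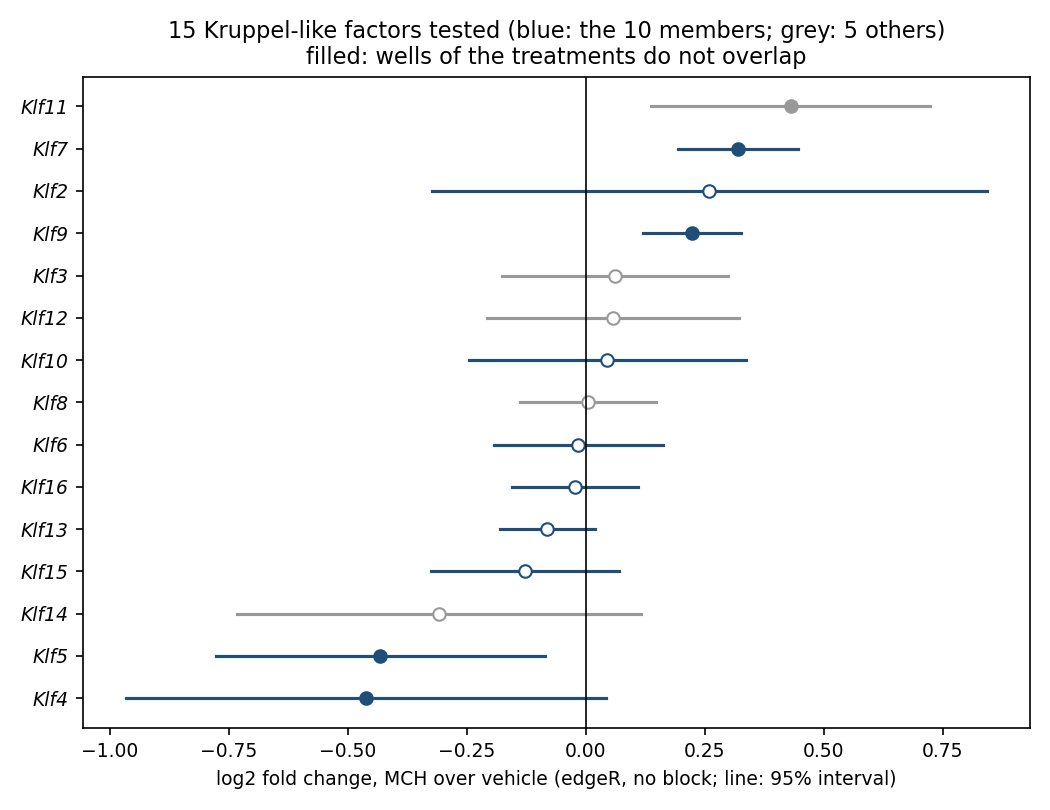
log2 fold change of MCH over vehicle (horizontal axis, edgeR without a block) with its 95% interval for the 15 Kruppel-like factors tested, the 10 members in blue and 5 others in grey, with filled points where the wells of the treatments do not overlap. The intervals of *Klf7*, *Klf9*, *Klf11* and *Klf5* leave out 0, and those of the other 11 include it.

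The Sp factors share the zinc fingers and the GC box with the Kruppel-like factors. Of 9 listed, 7 were tested and 0 were called in either direction by edgeR with or without the replicate block or by DESeq2, and 0 had an unadjusted *P* value under 0.05. They ran from *Sp7* at −0.68 (SE 0.38) to *Sp4* at 0.13 (SE 0.06) on the log2 fold change scale, with a median of 0.03. The 10 cofactors that the family recruits, among them Sin3, CtBP and p300, also gave 0 calls in these fits (unadjusted *P* value under 0.05 for 2, *Crebbp* and *Ep300*), from *Ctbp1* at −0.04 to *Ep300* at 0.18 with a median of −0.01. The 6 ubiquitin ligases that turn the factors over gave 0 calls (0 at an unadjusted *P* value under 0.05), from *Itch* at −0.05 to *Fbxo32* at 0.44 (SE 0.42), where *Fbxo32* was below 1 CPM on average.

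Pathways known to act before single members were described in the same way, and edgeR without a block called 0 genes in each. An unadjusted *P* value under 0.05 was reached by 1 gene of the ERK5 and MEF2 list (*Mef2c*), 1 of the nuclear receptor list (*Ncoa1*), 1 of the glucocorticoid list (*Per1*), 3 of the TGF-β list and 0 of the axon growth list. DESeq2 called *Per1* and *Smad7* alone, both lower in MCH. Of the 12540 genes to which it gave an adjusted *P* value, DESeq2 called 93 lower. Among 7 genes of the ERK5 and MEF2 pathway, which induces *Klf2* and *Klf4*, the log2 fold changes ran from −0.11 (*Mef2c*) to 0.09 (*Map3k2*). The 7 nuclear receptors and coactivators that act on *Klf9* were all above 0, from *Thra* at 0.0014 to the mineralocorticoid receptor *Nr3c2* at 0.24, with a median of 0.03. With the replicate block, which called 1.73% of all genes higher, 2 of these 7 were called higher, *Nr3c2* (adjusted *P* value 0.0336) and the coactivator *Ncoa1* (log2 fold change 0.13, adjusted *P* value 0.0289).

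Of 14 genes that glucocorticoid induces, as it does *Klf9* and *Klf15*, 13 were tested. Their log2 fold changes were above 0 for 9 and below 0 for 4, with a median of 0.03. *Per1*, a clock gene, was at 138.9 ± 13.4 CPM in vehicle and 90.7 ± 11.7 CPM in MCH (SD, *n* = 4 each), opposite in direction to *Klf9* (log2 fold change −0.62, SE 0.10, adjusted *P* value 0.069 without a block). The highest value of the list was that of *Zbtb16*, at 0.11. With the replicate block 2 of the 13 were called lower, *Per1* (1.49e-08) and the kinase *Sgk1* (log2 fold change −0.24, 0.00169), and 2.25% of all genes were.

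Of 9 early TGF-β target genes, which *Klf10* belongs to by its regulation, 8 were tested, and 6 of the 8 had log2 fold changes below 0 (median −0.04). *Smad7*, the inhibitor of TGF-β receptors, was at 10.7 ± 0.48 CPM in vehicle and 7.94 ± 0.80 CPM in MCH (log2 fold change −0.43, SE 0.09, adjusted *P* value 0.14 without a block and 0.00645 with the replicate block), while *Klf10* stood at 0.05. *Id3* was the highest of the list at 0.10. With the replicate block, which called 2.25% of all genes lower, 3 of the 8 were called lower: *Smad7*, *Id2* and *Bhlhe40*. Of 10 axon growth genes linked to the family, 9 were tested, from *Atf3* at −0.10 (SE 0.33) to *Jun* at 0.25 (SE 0.13), and *Jun* alone was called with the replicate block (adjusted *P* value 0.00115) but not with the block of replicates 1 and 2 against 3 and 4 (0.115).

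Genes whose pattern over the 8 wells was most like that of *Klf7* were found by the root mean square difference of centered log2 CPM, over all genes tested. The 5 nearest were *Lpin1*, a phosphatidate phosphatase (0.04), *Zfp518a* (0.05), *Gse1* (0.05), *Nrp1*, a receptor for semaphorins and vascular endothelial growth factor (0.05), and *Nrip1*, a nuclear receptor corepressor (0.06). *Lpin1* was at 17.6 ± 1.14 CPM in vehicle and 21.7 ± 0.60 CPM in MCH, and *Nrp1* at 233.3 ± 6.04 CPM and 282.6 ± 18.9 CPM (SD, *n* = 4 each). In edgeR without a block the adjusted *P* values of the 5 were 0.0838 to 0.399. With the replicate block they were 0.00124 to 0.0151. Like *Klf7*, none was called without the block and all 5 were called with it. As the 5 were chosen for likeness to *Klf7* in these same wells, this follows largely from the choice and is no separate result.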

How the data were processed

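RNA of 8 wells (4 vehicle, 4 MCH) was sequenced. Reads were quantified by the authors on GRCm38 with Salmon, run inside nf-core/rnaseq 3.0, and the submitters' processing notes also list R 4.0.3 and DESeq2 1.13.0. Genes were deposited as estimated counts, the sums of Salmon's reads per transcript with no scaling, 9.13% of them fractional. Transcripts were deposited per well as estimated counts, effective length and TPM, the last scaled by the authors for length and depth. For 98.99% of named genes the transcripts summed to within 1 read of the gene table. Names and coordinates are from GENCODE vM21 (45143 of 45706 genes named), since the authors' annotation version is not given in the sources used here.

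Counts were rounded and tested in R 4.3.3 with edgeR 4.0.16 (TMM, filterByExpr by treatment with count minimum 10 and total minimum 15, robust quasi-likelihood fit, no block). *P* values were adjusted by Benjamini–Hochberg over 14962 genes, with a threshold of 0.05. Totals of 26083936 to 31844861 counts set the precision, with 3 counts (0.115 CPM in the shallowest well) as a floor that covers counting error only. Alternatives were DESeq2 1.42.0, limma voom (3.58.1), DESeq2 size factors, no filter, 1 CPM in 4 wells, a length offset, 2 blocks and each well left out. The tests were tried on simulated counts.

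The treatments share replicate numbers. Deviations from the treatment means correlated at 0.445 to 0.545 between wells of the same number. By the rule used (over 0.1 in all 4 pairs) the wells count as paired, which rests on the values alone. Wells of other numbers on the same side (1 with 2, 3 with 4) correlated at 0.475 to 0.521. The second block uses these sides, read from the first principal component.

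The members and gene lists were chosen with earlier results of these data known. Named genes are the 10 members, tested relatives, called genes, the lowest and highest of each list, and the 5 genes nearest to the member with the lowest *P* value. *Crebbp* and single cell type markers were named after their values were seen. Promoters came from RefSeq, and protein sequences were not analysed here. One gene of the TGF-β list is not reported here, and the counts of that list leave it out.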

Additional observations from a re-analysis of the deposited data

Results flagged for a closer look

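In 1 of 20 groups of 4 wells (10 members in 2 treatments), 1 well stood far from the other 3 by Dixon's criterion, which chance meets in about 1 of 20 groups. It was *Klf4* in MCH-treated replicate 2, at 0.71 CPM against 1.15 to 1.21 CPM in the other MCH-treated wells, a gap of 0.877 of the range of the group against a critical value of 0.829. The well held 19 counts of *Klf4*.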

How the results depend on the processing

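Of 158 comparisons of a member with an alternative that gave an adjusted *P* value, 142 kept direction and side of the threshold, 8 newly passed it and 8 turned direction, the latter all with 1 well left out: *Klf6* (log2 fold change 0.02346, 0.02025, 0.01904 and 0.03677 without vehicle replicates 1 and 2 and MCH replicates 3 and 4, range −0.0657 to 0.0368), *Klf10* (−0.01179 and −0.01463 without vehicle replicates 1 and 2, range −0.0146 to 0.174) and *Klf16* (0.02051 and 0.009856 without vehicle replicate 4 and MCH replicate 1, range −0.0566 to 0.0205). The number of members called was 0 without a block, 2 in DESeq2, 2 with the replicate block, 2 with the block of replicates 1 and 2 against 3 and 4, 1 without a filter (*Klf7*, 0.0398) and 0 to 1 with a well left out (*Klf9* without vehicle replicate 3). *Klf7* was called in 4 of 8 alternatives that keep all wells and *Klf9* in 3 of 8, with adjusted *P* values of 6.74e-05 to 0.401 and 0.00283 to 0.324, the highest with the length offset. Over all genes, 35 calls became 157 in DESeq2, 596 with the replicate block, 668 with the other block, 7 with the length offset and 4 to 29 with a well left out. Transcripts called went from 0 to 6 with the block of replicates 1 and 2 against 3 and 4, to 0 with the replicate block, and to 0 to 1 with a well left out. With the length offset *Klf3* turned to −0.16, *Klf8* moved to 0.45 and *Klf13* to −0.03. With a well left out, *Klf2* ran from 0.134 to 0.414, *Klf15* from −0.176 to −0.0455 and *Klf13* from −0.103 to −0.041. The replicate block changed the call of no member other than *Klf7* and *Klf9*; the causes were not tested. *Klf2* and *Klf4*, at 19 to 54 counts per well, had no adjusted *P* value in DESeq2 and set the limit of depth.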
